A study of Rattus norvegicus with 24 samples.

Results

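Cd44 and genes of its ligands were measured in the colon and colonic tumours of Apc-mutant rats, with and without an irritant of the colonic lining. The members are Cd44, the cell-surface receptor for hyaluronan; Spp1, which encodes osteopontin, a secreted phosphoprotein that binds integrins and CD44; and Has1 and Has2, which encode membrane enzymes that make hyaluronan. They were chosen by gene name with earlier results of these data in view, so their own differences are described here without p-values. These are 4 of 15314 genes named on the array, where 5 of 41012 gene probes carried their names: 2 for Cd44 and 1 each for Spp1, Has1 and Has2. All 5 were among the 30430 probes with a Cy3 signal well above background on at least 5 of 24 arrays. Each probe was kept apart.

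The animals were 97 day old male (ACIxF344)F1-Pirc rats of genotype Apc-Pirc/+, so every rat, untreated ones included, carried the Pirc allele of Apc and formed tumours. Dextran sodium sulfate (DSS), an irritant given at 4% in the water with a molecular weight of 500000, was drunk by 5 of the 10 rats on days 40 to 47 and again on days 54 to 61; the remaining 5 had none. Normal tissue and a tumour sample of the distal colon were taken from each rat, which gave 4 groups of 5 rats: normal untreated (7 arrays), normal DSS (6), tumour untreated (5) and tumour DSS (6). Each value is log2 of the Cy3-labelled sample over a Cy5-labelled pool of Apc wild type normal colon; the dyes were not swapped, so a level relative to the pool may hold a dye effect that cancels between groups. Untreated rats are numbered 2, 3, 4, 8 and 10, and DSS rats 1, 5, 6, 7 and 9.

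CD44 is a receptor whose extracellular stem varies by alternative splicing, whose outer part can be shed by proteases, and whose tail binds the cytoskeleton. In the intestine Cd44 marks cells of the crypt base and is known as a target of Wnt signalling, the pathway that Apc restrains. Hyaluronan is a long sugar polymer of the matrix that is made at the cell membrane and cut by hyaluronidases, and osteopontin is made by epithelial cells and macrophages among others. Bulk tissue holds many cell types, so more cells of a type and more RNA per cell cannot be told apart here.

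The probe sequences are shown first, because the Cd44 probes gave different values. The last 30 bases of one Cd44 probe and the whole of the other follow, together with both further array probes that the files describe as CD44 under another name. Those 2 were added after their descriptions and values had been seen. Capitals mark the letters ATTTA, a short AU-rich element.
Cd44 A_43_P11621, last 30 bases: gacgctATTTAtctttagtaagctATTTAt
TC575730 A_44_P975868, last 30 bases: aATTTAgtgattttgtaaagtactaggaac
Cd44 A_44_P491308: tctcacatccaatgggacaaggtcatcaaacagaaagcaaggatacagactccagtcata
U46958 A_44_P548083: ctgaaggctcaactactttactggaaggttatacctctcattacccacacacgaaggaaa

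A_43_P11621 holds ATTTA 2 times in its 60 bases and TC575730 holds it 1 time. A_44_P491308 and U46958 hold none. TC575730 has a stop codon in all 3 forward frames, A_43_P11621 has 1 frame open, U46958 has 2 open and A_44_P491308 has all 3 open. No pair of these 4 probes shared a run of more than 7 bases. Their positions in the genome and in exons were not analysed here.

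Cd44 was low in the normal colon of untreated rats, intermediate in the normal colon of DSS rats and high in tumours of either treatment on the probe A_43_P11621. This probe was well above background on all 24 arrays. Normal untreated colon had log2 values of -1.83, -2.84, -2.48, -1.998 and -1.42 in rats 2, 3, 4, 8 and 10. Normal DSS colon had 0.45, 0.57, 1.07, 0.47 and 1.28 in rats 1, 5, 6, 7 and 9. Every untreated rat was thus below the wild-type pool and every DSS rat above it. Signs against the pool, here and below, may hold a dye effect or other differences of the pool, so they do not measure the Apc genotype. Tumours of untreated rats had 1.98, 2.23, 3.05, 2.74 and 2.66, and tumours of DSS rats had 2.31, 2.09, 2.58, 2.55 and 2.09. No normal sample reached the lowest tumour, while the 2 groups of tumours overlapped.

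In untreated rats the tumours exceeded normal colon by 4.65 ± 0.25 on the log2 scale (standard error of the fit, 5 rats per group), a 25.1-fold difference. This was the rank 3 difference of 30430 probes, counted from the highest, and 5 of 5 rats had the higher value in their tumour. In DSS rats the same difference was 1.56 ± 0.25, or 2.94-fold, again with 5 of 5 rats higher in the tumour and no overlap. Between normal tissues, DSS rats exceeded untreated rats by 2.89 ± 0.25, or 7.39-fold, with no overlap. Tumours of DSS rats differed from tumours of untreated rats by -0.21 ± 0.25. The DSS difference in tumours minus that in normal colon was -3.09 ± 0.35. The 3 tumour and normal-colon comparisons share groups of samples, so these values are set side by side and are not independent.

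**Figure D1:**
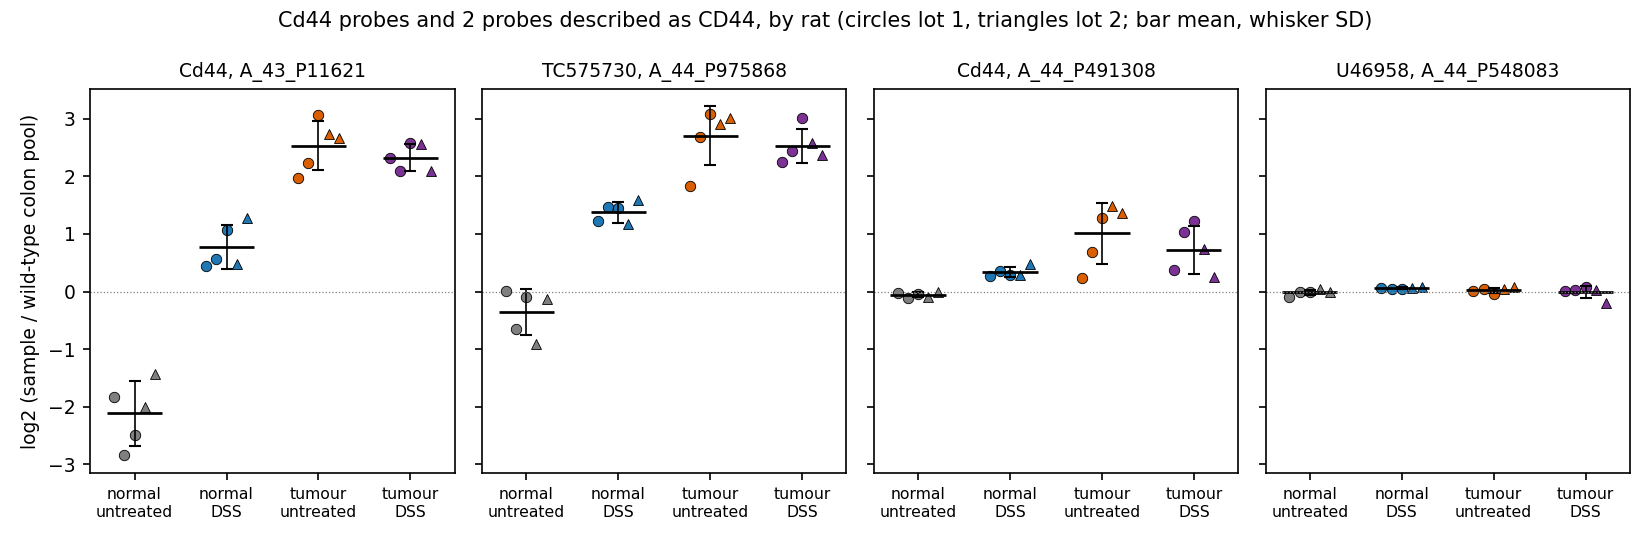
Log2 of sample over wild-type colon pool (y axis) for 4 probes in 4 groups (x axis); each point is 1 rat, circles are lot 1 and triangles lot 2, the bar is the mean and the whisker the SD of 5 rats. A_43_P11621 and TC575730 step from untreated normal colon through DSS normal colon to tumours, A_44_P491308 does so over a shorter range, and U46958 stays between -0.19 and 0.09.

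The probe TC575730, whose description names CD44, ran alongside A_43_P11621. Its values lay between -0.91 and 0.00 in normal untreated colon, between 1.16 and 1.59 in normal DSS colon, between 1.83 and 3.09 in tumours of untreated rats and between 2.24 and 3.01 in tumours of DSS rats. Both probes therefore put the DSS normal colon between the other normal colon and the tumours, with no overlap on either side. Its difference between tumour and normal colon was 3.06 ± 0.22 in untreated rats and 1.15 ± 0.22 in DSS rats. The DSS difference in normal colon was 1.73 ± 0.22 and that in tumours -0.17 ± 0.22. Over the 20 samples its values correlated with those of A_43_P11621 at r = 0.98, a description over samples that share groups and slides.

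The probe A_44_P491308 gave smaller differences and more spread among tumours. Its signal was well above background on 3 of 7 normal untreated arrays and on all 17 arrays of the other 3 groups. Normal untreated colon had -0.02, -0.11, -0.04, -0.10 and -0.01, and normal DSS colon had 0.27, 0.36, 0.28, 0.30 and 0.48. These groups did not overlap, although their difference was only 0.39 ± 0.21. Tumours of untreated rats had 0.24, 0.68, 1.28, 1.48 and 1.37, and tumours of DSS rats had 0.38, 1.03, 1.23, 0.73 and 0.25. Rat 2 had the lowest tumour value on this probe and on both other detected Cd44 probes. Rat 9 had the lowest tumour value among DSS rats here, 0.25, below its own normal colon at 0.48. That tumour array is 1 of 3 with raised signal, and the log2 Cy3 intensity of the probe ran the other way, 8.09 in the tumour and 7.32 in the normal colon.

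The tumour difference on A_44_P491308 was 1.07 ± 0.21 in untreated rats, where 5 of 5 rats were higher in the tumour and the groups did not overlap. It was 0.39 ± 0.21 in DSS rats, where 4 of 5 rats were higher and the groups overlapped. The offset of 50 intensity units that was added to every background-corrected signal pulls the ratios of dim probes towards 0. On Agilent's processed signals, which carry no such offset, the difference in untreated rats was 3.25 and the DSS difference in normal colon was 2.22, against 5.05 and 3.32 on A_43_P11621. The direction was the same on both scales, and the gap between the Cd44 probes was smaller on the processed signals. Those signals come from other processing steps as well, so the offset is not the only thing that differs. With an offset of 16 in place of 50 the same 2 differences were 1.46 and 0.65, against 4.75 and 2.99 on A_43_P11621. In DSS rats the tumour difference of A_44_P491308 was 0.45 on the processed signals and 0.385 with an offset of 16.

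U46958, described as a partial coding sequence of CD44i, was well above background on 2 of 24 arrays and did not enter the fit. Its group means ran from -0.02 ± 0.05 (SD, n = 5) in normal untreated colon to 0.06 ± 0.02 in normal DSS colon. Tumours of untreated rats had 0.02 ± 0.05 and tumours of DSS rats -0.01 ± 0.11. No difference was measurable at this signal.

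The DNA before the start of Cd44 is shown because Wnt signalling acts through TCF factors, which bind a short core motif. RefSeq's promoter table (build GRCr8) held Cd44, Spp1 and Has1 and 33469 promoters in all. The 250 bases upstream of Cd44 lie at chr3:109699425-109699674 on the minus strand, with the core in capitals.
Cd44 upstream region: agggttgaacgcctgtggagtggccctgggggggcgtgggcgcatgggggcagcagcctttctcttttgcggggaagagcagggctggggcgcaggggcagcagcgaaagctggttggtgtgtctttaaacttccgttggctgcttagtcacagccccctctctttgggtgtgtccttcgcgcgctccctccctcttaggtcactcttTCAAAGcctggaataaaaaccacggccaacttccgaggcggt

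The capitals TCAAAG, at position -42 from the start, are the TCF core CTTTGA on the other strand. The search covered both strands of 250 bases before to 50 bases after each start. CTTTGA was found in 16.1% of all promoters, in Cd44 and in neither Spp1 nor Has1. The AP-1 site TGANTCA was in none of these 3 promoters and in 7.33% of all. TATAAA was found in Spp1, at position -204, and in 14.2% of all. These are matches of letters only.

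Spp1 was higher in tumours than in normal colon and did not separate DSS from untreated rats in either tissue. Its probe had 10 spots on each array, which were averaged, and the sequence lies in an open frame; it is shown to identify the transcript measured.
Spp1 A_44_P491796: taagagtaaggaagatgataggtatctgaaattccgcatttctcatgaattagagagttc

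The Spp1 signal was well above background on 1 of 7 normal untreated arrays, 3 of 6 normal DSS arrays and all 11 tumour arrays. Normal untreated colon had -0.33, -0.42, -0.13, -0.70 and -0.04 in rats 2, 3, 4, 8 and 10, and normal DSS colon had -0.44, -0.50, -0.14, -0.26 and -0.57 in rats 1, 5, 6, 7 and 9. All 10 normal samples were below the wild-type pool. Tumours of untreated rats had 0.20, 0.61, 0.92, 0.64 and 1.39, and tumours of DSS rats had 0.11, 0.26, 0.36, -0.04 and 1.01. Each tumour exceeded every normal sample of its own treatment. On this scale the SDs of untreated and DSS rats were 0.44 and 0.404 in tumours, against 0.258 and 0.178 in normal colon. On Agilent's processed signals, which carry no offset, the order was reversed. The SDs there were 0.378 and 0.604 in tumours, against 1.222 and 1.115 in normal colon. Which tissue spread more widely thus depended on the scale, and no difference in spread between the tissues is drawn from it.

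The Spp1 tumour difference was 1.08 ± 0.20 in untreated rats, or 2.11-fold, and 0.72 ± 0.20 in DSS rats, or 1.65-fold, with 5 of 5 rats higher in the tumour in both. Its DSS difference was -0.05 ± 0.20 in normal colon and -0.41 ± 0.20 in tumours. On Agilent's processed signals the tumour difference was 4.34 in untreated and 3.11 in DSS rats. With an offset of 16 it was 1.522 and 1.115. Rat 9, whose tumour array is 1 of 3 with raised signal, had the highest DSS tumour value. Without that rat the Spp1 difference in DSS rats was 0.50.

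Markers of macrophages, cells that can make osteopontin, were also higher in the tumours of untreated rats: 8 of 13 tested genes rose and none fell. Lyz2, which encodes lysozyme, rose by 2.66 ± 0.31 (adjusted p = 2.19e-05, limma with Benjamini-Hochberg adjustment), Cd68 by 1.03 ± 0.28 (adjusted p = 0.0161) and the complement gene C1qa by 1.33 ± 0.36 (adjusted p = 0.0151). The mean level of the 13 genes ran from -0.54 to -0.17 in normal untreated colon, from 0.06 to 0.22 in normal DSS colon, from 0.05 to 0.85 in tumours of untreated rats and from 0.13 to 0.65 in tumours of DSS rats. In DSS rats 1 of 13 rose in tumours. Between the normal tissues the level of the list did not overlap, with 2 of 13 genes rising with DSS, whereas Spp1 overlapped. Over all probes 8.63% rose in tumours of untreated rats, 3.7% in tumours of DSS rats and 3.73% with DSS in normal colon. The part of macrophages in the Spp1 difference was not tested.

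Has1 stood near the pool in most samples and was high in the normal colon of 2 DSS rats. Has2 showed no clear order among the groups. The Has1 probe is given to identify the transcript measured.
Has1 A_44_P393235: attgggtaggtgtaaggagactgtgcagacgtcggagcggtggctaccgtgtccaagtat

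Has1 was well above background on 8 of 24 arrays: 2 normal untreated, 4 normal DSS, none of the tumours of untreated rats and 2 of the tumours of DSS rats. The Cy5 signal of the pool was well above background on 5 of 24. A ratio near 0 thus does not show a level like that of the pool. Normal DSS colon had 0.58 and 0.63 in rats 1 and 5, but 0.09, -0.03 and -0.05 in rats 6, 7 and 9. Normal untreated colon ran from -0.07 to 0.01, tumours of untreated rats from -0.18 to 0.00 and tumours of DSS rats from -0.11 to 0.21. The group difference therefore rests on 2 rats, which also had the most similar pair of normal DSS profiles (r = 0.97 across probes, against 0.93 at most for other pairs of rats in any group).

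The Has1 DSS difference in normal colon was 0.27 ± 0.12. It was 0.03 without rats 1 and 5, 0.46 within lot 1, which holds both, and -0.01 within lot 2. On Agilent's processed signals it was 1.91, with values from -0.53 to 3.01 and a median of 1.52 among the 5 DSS rats. Normal untreated colon ran from -1.38 to -0.31 on that scale, so the higher level there was not limited to rats 1 and 5. The tumour differences of Has1 were -0.03 ± 0.12 in untreated and -0.19 ± 0.12 in DSS rats. Has1 was not well above background on any tumour array of untreated rats, so no fold is given against that group. Under median centring the first difference turned to 0.01.

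Has2 was well above background on 7 of 24 arrays, 3 normal untreated and 2 in each group of tumours. Normal untreated colon ran from -0.20 to -0.01, normal DSS colon from -0.30 to 0.00, tumours of untreated rats from -0.14 to 0.45 and tumours of DSS rats from -0.14 to 0.14. The highest value, 0.45, was the tumour of rat 10, which also had the highest Spp1 value. The tumour difference was 0.17 ± 0.09 in untreated rats, with 3 of 5 higher, and 0.17 ± 0.09 in DSS rats, with 5 of 5 higher. No normal DSS array was well above background, so no fold is given against that group. The DSS differences were -0.07 ± 0.09 in normal colon and -0.07 ± 0.09 in tumours. On Agilent's processed signals the tumour difference of Has2 was 0.91 in untreated and 1.41 in DSS rats, and neither passed. The Cy5 signal of the pool was well above background on 11 of 24 arrays. At this signal a change in Has2 could not be told from none.

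**Figure D2:**
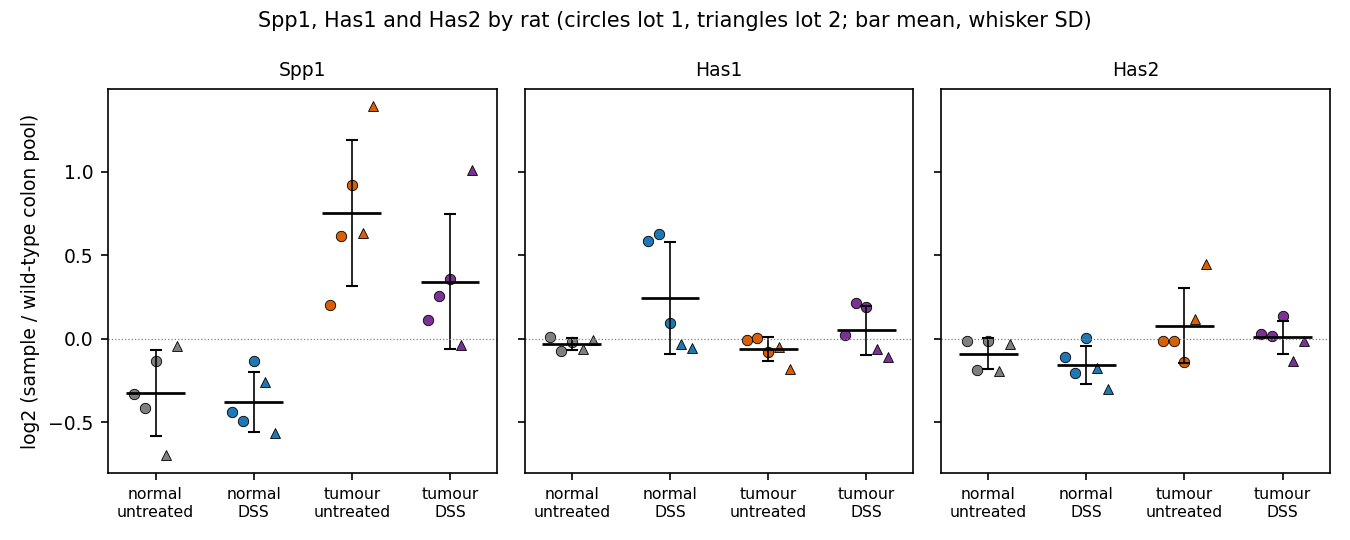
Log2 of sample over wild-type colon pool (y axis) for Spp1, Has1 and Has2 in 4 groups (x axis); each point is 1 rat, circles are lot 1 and triangles lot 2, the bar is the mean and the whisker the SD of 5 rats. Spp1 tumours lie above the normal samples of the same treatment, Has1 is above 0.5 only in 2 DSS rats, and all Has2 values lie between -0.30 and 0.45.

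In the fit across all 30430 probes, Cd44 on both probes and Spp1 passed an adjusted p of 0.05 for tumours of untreated rats, 3 of the 5 member probes, where 17.7% of all probes passed. Groups that did not overlap, with tumours higher, were found for the same 3 probes and for 6.22% of all. For tumours of DSS rats 2 of 5 passed, Cd44 A_43_P11621 and Spp1, where 7.32% of all probes passed, and the groups of both did not overlap, as for 3.81% of all. For DSS in normal colon 1 of 5 passed, Cd44 A_43_P11621, where 6.81% of all passed; both Cd44 probes did not overlap, as for 4.46%. For DSS in tumours 0 of 30430 probes passed (0%; 1931 had an unadjusted p under 0.05 in limma), 32 did so with slide as a random block, and none of the members did. For the difference between the DSS effects 1 of 5 passed, Cd44 A_43_P11621, and 2.34% of all probes. The members were chosen with these values known, and the counts are a description.

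Cd44 A_43_P11621 held its direction in untreated rats and in normal colon under all alternatives and within both lots. Within lot 1 and lot 2 its tumour difference was 4.81 and 4.41 in untreated rats and 1.63 and 1.45 in DSS rats, and its DSS difference in normal colon 3.08 and 2.59. Within lot 2, with 2 rats per group, it did not pass in tumours of DSS rats or with DSS in normal colon, and without rats 1 and 5 it did not pass in tumours of DSS rats (1.47). With arrays only centred on their median in place of loess, the DSS tumour difference turned from -0.21 to 0.39, while the median of all probes in that comparison moved to 0.23. Spp1 in DSS rats passed in 15 of 26 settings, which include the main fit and Aquantile scaling, a setting that repeats its log ratios. It did not pass within either lot or under median centring, without the 3 arrays of raised signal, or when any of rats 1, 3, 4, 5, 6 and 9 was left out. Within lots its difference there was 0.60 and 0.90, and within lot 1 A_44_P491308 did not pass in untreated rats (0.79, against 1.48 in lot 2). Spp1 in untreated rats did not pass within lot 2 (1.38). On Agilent's processed signals A_44_P491308 passed for DSS in normal colon (2.22) and for the difference between the DSS effects (-2.795). Has1 passed for DSS in normal colon within lot 1 (0.46).

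**Figure D3:**
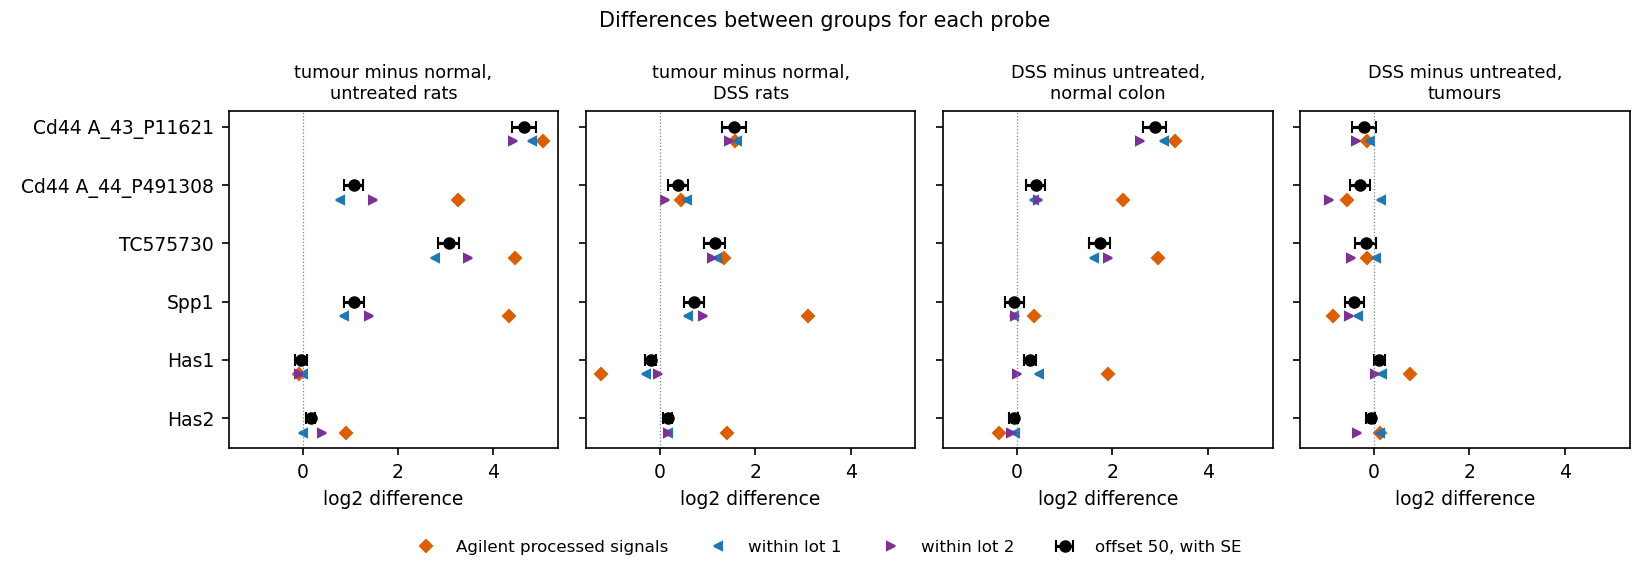
Log2 differences (x axis) for 6 probes (y axis) in 4 comparisons (panels); black points with bars are the fit with its standard error, diamonds Agilent's processed signals without an offset, and triangles the values within lot 1 and lot 2. Cd44 A_43_P11621 has like values on all scales, while A_44_P491308 and Spp1 move from 1.07 and 1.08 to 3.25 and 4.34 for tumours of untreated rats.

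Among all probes of other named genes, the one most like Cd44 A_43_P11621 over the 20 samples was Mmp7, a matrix metalloprotease (r = 0.98). Next were Pcsk6, a proprotein convertase (r = 0.97), Htatip2, Gpsm1 and Noxo1 (each r = 0.97). For A_44_P491308 the closest were Fcer2 (r = 0.94), the low affinity IgE receptor, then Spetex2g, Gbp4, Sh3kbp1 and Alox12. Sh3kbp1 was also closest to TC575730 (r = 0.98). For Spp1 they were Atf7ip2 (r = 0.94), Pphln1, the matricellular growth factor Ccn2 (r = 0.92) and Exoc3l4. For Has1 they were Plekhs1 (r = 0.91), Cpa6, Cyp2b15, the keratin Krt17 (r = 0.84) and Atp8b2. For Has2 they were Katnal1 (r = 0.86), Zcchc9, Eef2kmt, Yars2 and Ms4a6a (r = 0.82). These samples share 4 groups and 2 lots, and with 30430 probes some high r are found for any pattern. Between members, A_43_P11621 had r = 0.80 with A_44_P491308, 0.67 with Spp1, -0.02 with Has1 and 0.37 with Has2, and Spp1 had r = 0.72 with Has2.

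Other genes of the system were read from a list of 98, of which 88 were on the array and 69 were tested. The list was also chosen with earlier results in view, so its p-values, adjusted over all probes, are not independent evidence. In tumours of untreated rats 17 rose and 6 fell (33.3%, median log2 difference 0.23, against 17.7% and 0.00 over all probes). In tumours of DSS rats 5 rose and 2 fell (10.1%, median 0.09, against 7.32% and 0.03). In normal colon 8 rose and 2 fell with DSS (14.5%, median 0.00, against 6.81% and -0.02 over all probes). In tumours none of 69 passed with DSS (median -0.01). Under median centring the counts were 6, 2 and 2 genes in the first 3 comparisons, among them Habp2, Mmp7, Mmp9, Msn and Hgf in tumours of untreated rats, Mmp7 and Lamb1 in tumours of DSS rats, and Mmp7 and Thbd with DSS in normal colon. With DSS in normal colon, Fn1, Hyal2, Ugp2, Src, Hgf and Adam17 did not pass in at least 8 of 24 alternatives each, and each of the 6 lost its call when some single rat was left out. Leaving out some single rat also removed the call of Hexa, Thbd, Psen2, Msn, Src and Lamb1 in tumours of untreated rats. It did so for Psen2 and Timp3 in tumours of DSS rats and for Thbd with DSS in normal colon.

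Among the genes listed for making hyaluronan and its precursors stands Hexa, a subunit of the lysosomal hexosaminidase that removes end sugars, although it acts in breakdown. Hexa fell by 0.52 ± 0.16 in untreated rats (adjusted p = 0.0298). The precursor enzymes Ugdh (-0.42 ± 0.20), Ugp2 (-0.26 ± 0.13), Gfpt1 (0.41 ± 0.21) and Gfpt2 (-0.36 ± 0.15) did not pass there. Ugp2, which makes UDP-glucose, fell by 0.48 ± 0.13 with DSS in normal colon (adjusted p = 0.0267). Has3, the remaining hyaluronan synthase, and Uap1 were not tested.

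Of genes for cutting hyaluronan, Hyal2, Hyal3 and Cemip2 were tested and 5 were not. Hyal2, a hyaluronidase anchored at the cell surface, rose by 0.78 ± 0.25 in tumours of untreated rats (adjusted p = 0.0382) and by 0.95 ± 0.25 with DSS in normal colon (adjusted p = 0.0293). In those tumours it did not pass in 8 of 25 alternatives, among them those without rat 2, 3, 4 or 8, and it was 0.22 within lot 2. Cemip2 (0.53 ± 0.27) and Hyal3 (-0.15 ± 0.14) did not pass in tumours of untreated rats. Of 13 tested genes for proteins that bind hyaluronan, 1 rose: Habp2, by 1.19 ± 0.24 (adjusted p = 0.00227). The lymphatic receptor Lyve1 (0.57 ± 0.20), the proteoglycan Vcan (0.43 ± 0.15), Tnfaip6 (0.24 ± 0.14) and the motility receptor Hmmr (-0.24 ± 0.21) did not pass.

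Of 6 tested integrin genes for osteopontin receptors, 2 rose in the tumours of untreated rats. Itgav, the alpha v subunit, rose by 1.60 ± 0.27 (adjusted p = 0.000581) and Itgb6, its epithelial partner, by 1.77 ± 0.25 (adjusted p = 0.000115). Itgb1 (0.59 ± 0.27), Itgb5 (-0.45 ± 0.15), Itga4 (0.05 ± 0.06) and Itga5 (0.05 ± 0.12) did not pass. Itgav also rose with DSS in normal colon, by 1.28 ± 0.27 (adjusted p = 0.00773), and its group means were 0.42 and 1.70 in normal untreated and DSS colon and 2.02 and 1.09 in tumours of untreated and DSS rats. The DSS difference of Itgav in tumours minus that in normal colon was -2.22 ± 0.39 (adjusted p = 0.00412). All 4 relatives of osteopontin on the array, Ibsp, Dmp1, Mepe and Dspp, were too dim to be tested.

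Of 11 genes for cleavage of osteopontin or CD44, 5 rose and none fell in tumours of untreated rats. Mmp7, which cuts osteopontin, rose by 5.56 ± 0.33 (adjusted p = 1.91e-08), and by 1.95 ± 0.33 in tumours of DSS rats (adjusted p = 0.00108). Mmp14, a membrane protease that sheds CD44, rose by 1.36 ± 0.30 (adjusted p = 0.00357), Mmp9 by 0.64 ± 0.14 (adjusted p = 0.00458), Psen2, a gamma-secretase subunit, by 0.66 ± 0.18 (adjusted p = 0.0141) and Thbd by 0.999 ± 0.27 (adjusted p = 0.0158). The sheddase genes Adam10 (0.48 ± 0.19) and Adam17 (0.14 ± 0.20) did not pass. In normal colon DSS went with higher Mmp7, by 3.69 ± 0.33 (adjusted p = 3.59e-06), Thbd, by 1.13 ± 0.27 (adjusted p = 0.0173), and Adam17, by 0.70 ± 0.20 (adjusted p = 0.0425). In tumours of DSS rats Psen2 rose by 0.75 ± 0.18 (adjusted p = 0.0129) and Timp3, a protease inhibitor, by 0.57 ± 0.14 (adjusted p = 0.0128). The Mmp7 difference between the DSS effects was -3.61 ± 0.46 (adjusted p = 0.000451).

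Of 18 tested partners of the CD44 tail and of its signalling, 4 rose and 4 fell in tumours of untreated rats. Cd74, which forms a receptor for MIF with CD44, rose by 1.22 ± 0.26 (adjusted p = 0.00296). The linkers Msn (0.62 ± 0.16, adjusted p = 0.0113) and Rdx (0.48 ± 0.16, adjusted p = 0.0477) and the kinase Src (0.55 ± 0.15, adjusted p = 0.0128) also rose, while Ezr, the third linker, had -0.16 ± 0.27 and did not pass. Rdx kept its call in 10 of 25 alternatives, and in 11 of 25 for tumours of DSS rats. Ank3, an ankyrin, fell by 1.32 ± 0.31 (adjusted p = 0.00565), the receptor Erbb2 by 0.82 ± 0.19 (adjusted p = 0.0062) and the growth factor Hgf by 0.60 ± 0.12 (adjusted p = 0.00148). In tumours of DSS rats Rdx rose (0.55 ± 0.16, adjusted p = 0.0451) and Tiam1 fell (-0.80 ± 0.21, adjusted p = 0.0256). Tiam1 did not pass there in 8 of 25 alternatives, among them those without rat 1, rat 5 or rat 9 (-0.52 without rat 9). In normal colon Tiam1 (0.93 ± 0.21, adjusted p = 0.0121) and Src (0.53 ± 0.15, adjusted p = 0.0339) rose with DSS and Hgf fell by 0.40 ± 0.12 (adjusted p = 0.0433).

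Of the other ligands of CD44, 3 of 4 tested rose in tumours of untreated rats: Fn1, fibronectin, by 1.54 ± 0.28 (adjusted p = 0.000943), Srgn, serglycin, by 1.47 ± 0.28 (adjusted p = 0.0013), and Lamb1, a laminin chain, by 0.57 ± 0.17 (adjusted p = 0.0263). Lamb1 rose by 1.26 ± 0.17 in tumours of DSS rats (adjusted p = 0.000152) and Fn1 by 1.12 ± 0.28 with DSS in normal colon (adjusted p = 0.0209). Selp had 0.12 ± 0.09 in tumours of untreated rats and did not pass. Of 8 tested splicing factors named for Cd44, Srsf10 rose by 0.98 ± 0.18 (adjusted p = 0.00102) in tumours of untreated rats. The other 7, among them Esrp2 (-0.11 ± 0.12), Khdrbs1 (0.12 ± 0.15), Srsf3 (0.48 ± 0.17) and Hnrnpa1 (0.69 ± 0.24), did not pass, and none of the 8 passed in the other comparisons.

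Markers of other tissues moved with some of these results. In the normal colon of DSS rats all 7 tested genes of squamous epithelium rose, and their mean level ran from 2.65 to 4.50 there, against -0.13 to 0.26 in all tumours. In normal untreated colon it was 0.00 to 0.09 in 4 rats and 2.05 in rat 8, whose Cd44 value on A_43_P11621, -1.998, was that group's median. Neutrophil genes also differed. In tumours of untreated rats 5 of 7 rose, and with DSS in normal colon 2 of 7 did, S100a8 and S100a9. The mean level of the 7 genes ran from -0.05 to 0.30 in normal untreated colon and from 0.83 to 1.94 in the other 3 groups. In normal DSS colon that level came mainly from S100a8 and S100a9, with group means of 3.47 and 3.15. The remaining neutrophil genes had 0.12 to 0.30 there. S100a8 and S100a9 were also the highest of the list in tumours, at 3.93 and 4.37 (untreated) and 2.72 and 3.37 (DSS). Of 10 fibroblast genes 4 rose in tumours of untreated rats and 1 with DSS in normal colon. Of 13 tested genes of colon epithelium, 12 were well above background on all 24 arrays, and 5 fell in tumours of untreated rats. Over all probes 8.63% rose and 9.1% fell in tumours of untreated rats, and 3.73% rose with DSS in normal colon. The part of these cell types in the Cd44 differences was not tested.

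The arrays came from 6 slides and 3 scan days by the file headers. The 2 lots are so named here from the grid name in those headers, which state no lot. All arrays of lot 2, and no others, were scanned on day 3, so lot and scan day cannot be told apart there. Each lot held rats of all 4 groups. On 3 arrays, a normal colon of rat 2, that of rat 4 and the tumour of rat 9, 87.1% to 95.2% of probes were well above background, against 48.4% to 71.0% on the other 21. In 4 samples a second array was hybridized. Over those, the largest difference between arrays of a sample was 0.29 on Cd44 A_43_P11621, 0.30 on A_44_P491308, 0.15 on Spp1, 0.12 on Has1, 0.21 on Has2 and 0.71 on TC575730. These values hold technical spread only.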

How the data were processed

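RNA of 20 samples of rat and tissue was measured on 24 arrays of 2 colours. Per the file headers, Agilent Feature Extraction (version 9.1.3.1) wrote the deposited spot intensity in Cy3 and Cy5. The deposited log10 ratio of a spot could be recomputed from the processed signals within 0.01 for 75.1% to 98.9% of spots. Partek also appears in the submitters' processing notes, where its role is left unstated. Mean signals were corrected with normexp (offset 50) and normalized by loess within each array in R 4.3.3 with limma 3.58.1, giving log2 of Cy3 over Cy5; the offset draws ratios of dim probes towards 0. Arrays of 1 rat and tissue were averaged. A probe was tested when well above background in Cy3 on at least 5 arrays. limma fitted a mean per group, two-sided, with Benjamini-Hochberg adjustment over 30430 probes and a threshold of 0.05.

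The members and lists were chosen with earlier results of these data known. Named genes are the members, the listed genes that passed or belong to a described class, and the 5 genes most like each member by r. A listed gene with several tested probes was read from its brightest one on average. Old names were updated through RefSeq's gene table; 21391 of 41012 probes stayed without a current name. The rat pairs the samples, since the labels give 1 animal for both tissues; after removal of group means its tissues correlated at 0.07 to 0.57. The number of arrays limits the precision. Some listed genes are counted but not reported here by name.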

Additional observations from a re-analysis of the deposited data

Results flagged for a closer look

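The DSS difference in tumours minus the DSS difference in normal colon was -3.091 for Cd44 A_43_P11621 and -1.907 for TC575730, both described without a p-value because they were chosen with results known. The same contrast was -2.215 for Itgav (adjusted p = 0.00412, limma) and -3.61 for Mmp7 (adjusted p = 0.000451); these genes come from a list also chosen with earlier results known, so their p-values are not independent evidence. The Cd44 value did not pass within lot 2 or under median centring. That of TC575730 did not pass within lot 1, within lot 2, under median centring or without rats 1 and 5.

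In tumours of DSS rats, U46958 had -0.193 in rat 9, far from the other 4 rats for the range of the group. That array is among the 3 with raised signal, and the probe was near background. Chance marks about 1 in 20 such groups.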

How the results depend on the processing

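With rat as a block, which pairs the tissues of an animal, the counts of probes past the threshold were as follows. Tumours of DSS rats had 3817 with rat as a random block and 3689 with a fixed block, and the difference between DSS effects had 1867 and 1698. The listed genes past the threshold were 11 under both blocks in tumours of DSS rats, and 35 under the fixed block in tumours of untreated rats. The block changed no call of a member. Src with DSS in normal colon did not pass with rat as a random block.

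In tumours of untreated rats the counts of probes and listed genes were 2744 and 14 within lot 2, and 963 and 6 under median centring. In tumours of DSS rats they were 3614 and 11 with lot as a block, 127 and 1 within lot 2, 4058 and 11 with slide as a random block, 696 and 2 under median centring, and 431 and 3 without rats 1 and 5, an alternative chosen after seeing the data. For DSS in normal colon they were 3874 and 16 with lot, 3520 probes within lot 1, 2 and 1 within lot 2, 5270 and 22 with slide, 403 and 2 under median centring, 17 listed genes on Agilent's processed signals and 1201 probes without rats 1 and 5. For DSS in tumours there were 32 probes with slide and 1 with first arrays only. The difference between DSS effects had 1494 with lot, 464 and 3 within lots 1 and 2, 1884 with slide, 201 under median centring, 1366 on processed signals, 333 without the arrays of raised signal and 144 without rats 1 and 5. The causes were not tested, and settings within a lot have fewer samples. The fit with slide as a block also kept all arrays apart. Second arrays of a sample counted there as further samples, so its counts do not show the slide block alone.

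Leaving out each rat in turn gave 2963 (without rat 8) to 5862 probes and 15 to 27 listed genes in tumours of untreated rats, 1177 (without rat 5) to 2317 and 4 to 8 in tumours of DSS rats, 1286 (without rat 3) to 2442 and 5 to 8 for DSS in normal colon, 0 to 2 probes for DSS in tumours, and 326 (without rat 1) to 863 for the difference between DSS effects. Under median centring 80.6% of the calls for DSS in normal colon were higher, against 54.8%. Aquantile between arrays leaves log ratios as they are, so in every count of alternatives it repeats the main fit. No result changed sign while called. Signals near background limit Has1, Has2, U46958 and the normal-colon values of Spp1 and Cd44 A_44_P491308, whose ratios depend on the offset.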
